A study of Mus musculus with 12 samples.

Results

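Lrrk2, Park7, Pink1, Uchl1, Vps35, Atp13a2 and Fbxo7 are the mouse counterparts of human genes linked to familial Parkinson disease (PD) or to inherited forms of parkinsonism. They were taken by name, and every probe set that the annotation of the array assigned to exactly 1 of these symbols was included. This gave 12 probe sets of the 45037 tested, for 7 genes of the 18193 measured. Fbxo7, Uchl1 and Lrrk2 had 1 probe set each, Vps35, Pink1 and Park7 had 2 each and Atp13a2 had 3, and no member shared a probe set with another named gene. All 12 had a mean above 4.475 on the log2 scale, the lowest lower quartile of any array.

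Whole VTA (ventral tegmental area, a midbrain region with dopaminergic neurons, glia and other cells) was dissected from wild type mice (strain C57 per the labels, C57BL/6 per the study's methods) aged 2 months (young), 10 months (middle-aged) or 18 months (late middle-aged). Age was the factor compared, and the labels give no mutation and no treatment for any group. Each age had 4 arrays, and each array held RNA pooled from 5 mice, so the spread described is between pools and not between single animals. The comparisons address how expression of these genes in the VTA differed before senescence, at 10 and at 18 months, from that of young mice.

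A pair of young arrays, 3 and 4, hardly differed: r was 0.998 over all probe sets, and a single probe set (1) was more than 1 apart on the log2 scale, where the 17 further pairs of equal age had 85 to 4905. They entered as their mean, so that 3 young samples were set beside 4 of middle age and 4 of late middle age. Signal at the 3′ probe sets of the Actb and Gapdh controls exceeded that at their 5′ ones by 3.29 to 3.63 in young samples, by 1.69 to 2.44 in those of 10 months and by 1.64 to 2.17 in those of 18 months, so later samples all lay below young ones in this measure of 3′ bias. Of the variance, 43.8% fell on the leading principal component, on which young array 2, array 3 of 10 months and arrays 2 and 4 of 18 months lay above 0. All 11 markers of dopaminergic neurons were measured and none lay below the lower quartile of the arrays, whereas 2 of 4 markers of choroid plexus did.

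The genes meet in a few cellular processes. Pink1 and Fbxo7 act in the removal of damaged mitochondria, in which the kinase PINK1 accumulates on the outer membrane and marks it with phosphorylated ubiquitin, and the F-box protein FBXO7 belongs to an SCF ubiquitin ligase and also binds a regulator of the proteasome. Vps35, Lrrk2 and Atp13a2 belong to the pathway of endosomes and lysosomes: VPS35 is the core of the retromer, which returns cargo from endosomes, LRRK2 is a kinase of Rab GTPases, and ATP13A2 is a lysosomal transporter of polyamines. UCHL1 is an abundant neuronal ubiquitin hydrolase, and PARK7 (DJ-1) is a redox-sensitive protein that protects cells from oxidative stress.

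Promoter windows of RefSeq (assembly GRCm38.p6, 300 bases, 250 before and 50 after a gene's start) were matched by symbol for 6 of the 7 genes, Fbxo7 having 2 windows that overlap, and no window was used for Vps35. Shown are those of the 3 genes that had both a window and an unadjusted p under 0.05 at 18 against 2 months. They lie at chr10:86021679-86021978 and chr10:86021904-86022203 (plus strand) for Fbxo7, at chr15:91672974-91673273 (plus strand) for Lrrk2 and at chr4:138326247-138326546 (minus strand) for Pink1. Capitals mark matches on either strand to the E-box CACGTG, the CRE half-site TGACG, the core of the antioxidant response element (ARE) TGANNNNGC, the TATA box TATAAA or the CCAAT box CCAAT.
Fbxo7 window 1: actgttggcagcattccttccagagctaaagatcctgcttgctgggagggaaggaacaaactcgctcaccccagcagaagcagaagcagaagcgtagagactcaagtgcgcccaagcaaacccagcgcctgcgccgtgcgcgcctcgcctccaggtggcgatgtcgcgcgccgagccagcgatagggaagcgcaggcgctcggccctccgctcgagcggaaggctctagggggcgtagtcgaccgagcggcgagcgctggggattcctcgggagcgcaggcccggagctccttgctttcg
Fbxo7 window 2: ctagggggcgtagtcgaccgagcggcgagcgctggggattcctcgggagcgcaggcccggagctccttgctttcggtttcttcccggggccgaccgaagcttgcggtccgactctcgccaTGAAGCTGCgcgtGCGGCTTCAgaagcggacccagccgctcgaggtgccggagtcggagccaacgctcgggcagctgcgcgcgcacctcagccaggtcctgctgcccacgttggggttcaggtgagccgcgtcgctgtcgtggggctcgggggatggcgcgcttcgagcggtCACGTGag
Lrrk2: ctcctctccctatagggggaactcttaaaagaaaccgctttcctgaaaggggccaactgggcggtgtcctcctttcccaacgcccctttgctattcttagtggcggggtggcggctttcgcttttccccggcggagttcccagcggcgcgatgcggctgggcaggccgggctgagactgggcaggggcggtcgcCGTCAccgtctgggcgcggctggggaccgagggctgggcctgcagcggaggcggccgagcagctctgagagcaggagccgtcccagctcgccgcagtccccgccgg
Pink1: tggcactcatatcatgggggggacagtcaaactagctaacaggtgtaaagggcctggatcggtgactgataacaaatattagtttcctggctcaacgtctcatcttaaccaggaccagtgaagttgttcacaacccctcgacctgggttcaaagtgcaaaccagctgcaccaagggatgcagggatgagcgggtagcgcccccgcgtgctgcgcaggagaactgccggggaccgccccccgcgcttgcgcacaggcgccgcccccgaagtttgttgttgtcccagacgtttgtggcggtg

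The second window of Fbxo7 held 1 E-box and 2 ARE cores. Counted from the gene's start in that window, the E-box lay at 43, after the start, and the ARE cores at −130 and −117. Both ARE cores lie past the end of the first window, and so after the start that the first window uses. Coding bases were not marked, so a match can lie in coding sequence. The first window of Fbxo7 and that of Pink1 held none of the 5 motifs, and that of Lrrk2 held 1 CRE half-site, read on the other strand. Of all 32851 windows of the same length, 7.15% held the E-box, 20.8% the CRE half-site, 41.3% the ARE core, 13.6% the TATA box and 37.4% the CCAAT box. Among the other members, Park7 had 1 CRE half-site and 2 ARE cores, Uchl1 had 3 ARE cores and Atp13a2 had 1 CRE half-site, and no member window held a TATA or a CCAAT box. The GC content of the member windows ran from 50.7% in Uchl1 to 70.3% in the second window of Fbxo7 (median of all windows 52.7%), with 9 to 40 CpG dinucleotides (median of all windows 7). These matches describe the letters only.

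At 18 against 2 months, Fbxo7 and the brighter probe set of Vps35 rose, and the other 10 member probe sets did not pass the test. Fbxo7 was already higher at 10 months, by about as much as at 18 months, whereas the brighter Vps35 probe set was called at 18 and not at 10 months. For neither was the change called as unequal between the intervals from 2 to 10 and from 10 to 18 months. Lrrk2 was higher and Pink1 lower at 18 months with adjusted p-values above 0.05, and Uchl1, Park7 and Atp13a2 varied within the spread of the samples. A probe set was called with an adjusted p under 0.05 (limma, Benjamini-Hochberg over all 45037 probe sets) and a change over 1.3-fold. By this rule 2 of 12 member probe sets (16.7%) were called at 18 against 2 months, both higher, against 7.46% of all probe sets in either direction and 4.55% called higher. The median change of the 12 was 0.12 on the log2 scale, against −0.06 over all probe sets, and 4 of them had an unadjusted p under 0.05. With each gene represented by its brightest probe set, 2 of 7 genes were called, both higher, against 8.82% of all genes in either direction and 5.77% called higher.

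**Figure D1:**
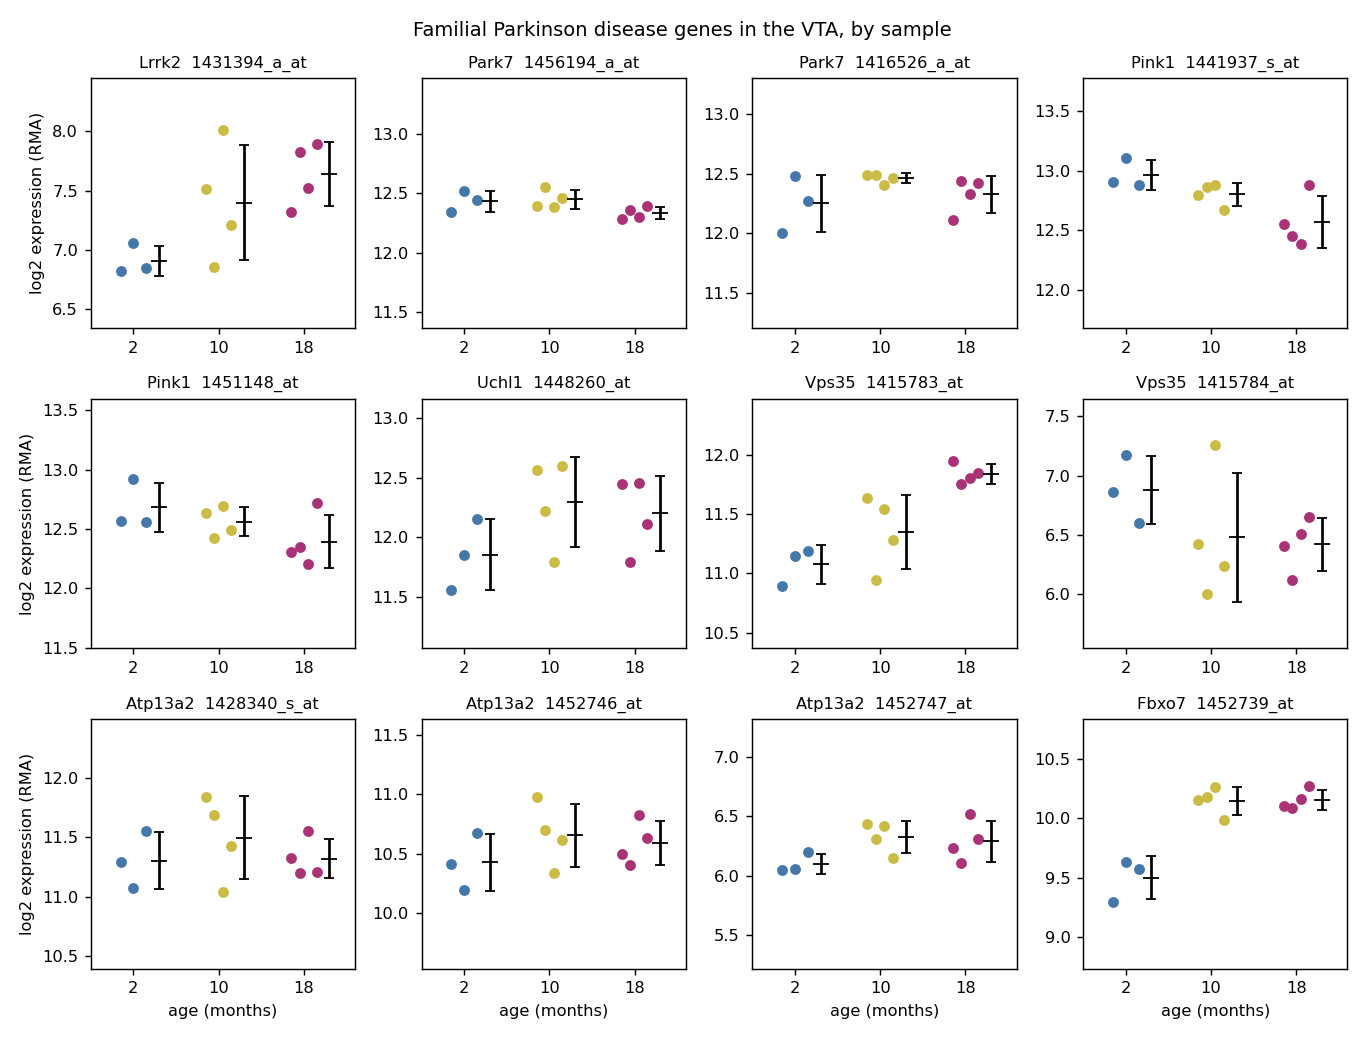
Log2 expression (RMA) of the 12 probe sets in the VTA at 2, 10 and 18 months of age, with 1 panel per probe set and the same height of scale in each. Points are samples (3 at 2 months, with young arrays 3 and 4 drawn as their mean, 4 at 10 months and 4 at 18 months) and bars show the mean ± SD. Fbxo7 at both later ages, and Lrrk2 and Vps35 1415783_at at 18 months, lie above all young samples.

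Fbxo7, the substrate adaptor of an SCF ubiquitin ligase, had log2 values of 9.29, 9.63, 9.50 and 9.65 on young arrays 1 to 4, of 10.16, 10.18, 10.27 and 9.98 at 10 months and of 10.10, 10.08, 10.17 and 10.27 at 18 months. Every later sample lay above every young one, and the samples of 10 and 18 months overlapped. The mean was 10.16 ± 0.09 at 18 months and 9.50 ± 0.18 at 2 months (SD, n = 4 and 3), a 1.58-fold rise (log2 change 0.66 ± 0.11 SE, 95% interval 0.41 to 0.90, adjusted p = 0.00926, limma). At 10 months it averaged 10.15 ± 0.12 (SD, n = 4), which was 1.56-fold above 2 months (log2 change 0.64 ± 0.11 SE, adjusted p = 0.0347, limma). In whole tissue, a different number of cells of a type and a different amount of RNA per cell cannot be told apart.

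Between 10 and 18 months the Fbxo7 values differed by 0.01 on the log2 scale (95% interval −0.22 to 0.24, adjusted p = 0.985, limma). The change from 2 to 10 months minus that from 10 to 18 months was 0.63 (unadjusted p = 0.00575, adjusted p = 0.898, limma), so the interval in which Fbxo7 changed was not resolved after adjustment. No probe set of the array was called for such a difference. Both later ages were set against the same young samples, so their changes are not independent. Without young array 1, the lowest, Fbxo7 was higher by 0.55 at 18 months with an adjusted p of 0.0596, and by 0.54 at 10 months with an adjusted p of 0.204.

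Vps35, the scaffold of the retromer, was measured by a pair of probe sets that the annotation links to the same transcript accession. At the brighter one, 1415783_at, the log2 values were 10.89, 11.15, 11.22 and 11.16 at 2 months, 11.63, 10.94, 11.54 and 11.28 at 10 months and 11.95, 11.75, 11.81 and 11.84 at 18 months. All samples of 18 months lay above all those of both other ages, and the values of 10 months, the most scattered, overlapped with the young ones. The mean of 11.84 ± 0.08 at 18 months (SD, n = 4) was 1.70-fold above that of 11.08 ± 0.16 at 2 months (SD, n = 3; log2 change 0.76 ± 0.16 SE, 95% interval 0.42 to 1.10, adjusted p = 0.0167, limma). At 10 against 2 months the change was 0.27 (adjusted p = 0.452), and at 18 against 10 months it was 0.49 ± 0.15 SE (unadjusted p = 0.00585, adjusted p = 0.847), not called. The change from 2 to 10 months minus that from 10 to 18 months was −0.22 (unadjusted p = 0.421, adjusted p = 0.934, limma). A later course than that of Fbxo7 was therefore not shown. Without young array 1 the change at 18 against 2 months was 0.67 with an adjusted p of 0.105.

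The other Vps35 probe set, 1415784_at, ran the opposite way. Its log2 values were 6.86, 7.17, 6.51 and 6.70 at 2 months, 6.42, 6.01, 7.25 and 6.24 at 10 months and 6.41, 6.12, 6.51 and 6.65 at 18 months. The ages overlapped, and the change at 18 against 2 months was −0.46 ± 0.26 SE (95% interval −1.02 to 0.11, adjusted p = 0.317, limma). The difference between the probe sets within an array was 3.98 to 4.71 at 2 months, 4.29 to 5.21 at 10 months and 5.19 to 5.64 at 18 months, so the arrays of 18 months did not overlap with the young ones. With the mean of both probe sets taken for the gene, Vps35 changed by 0.15 at 18 against 2 months (adjusted p = 0.684), and the call of this gene therefore rests on 1 of its 2 probe sets.

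**Figure D2:**
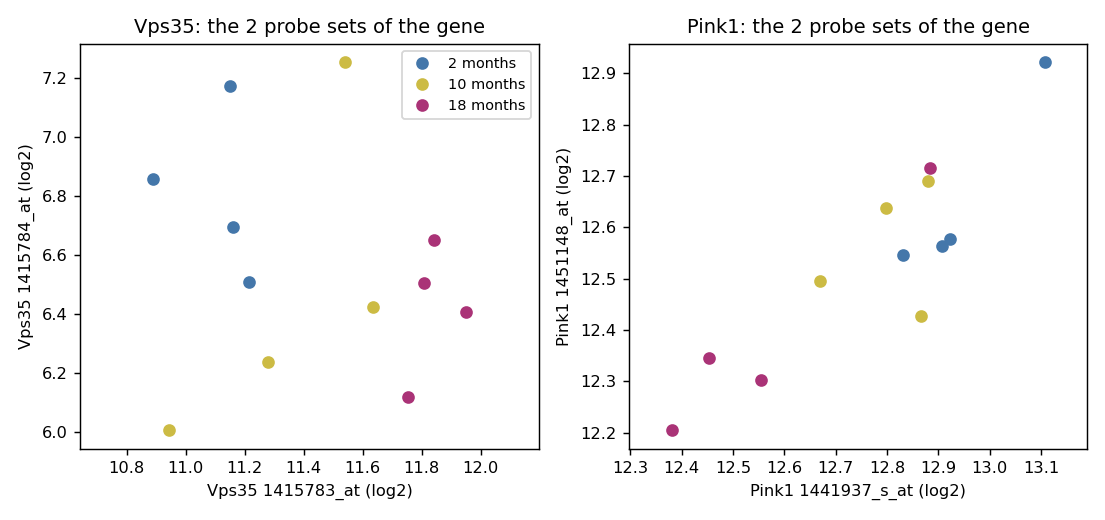
Log2 expression at the second probe set against the brightest one for Vps35 (left) and Pink1 (right), each point being 1 of the 12 arrays and the colour its age. The Vps35 arrays of 18 months lie to the right, from 11.75 to 11.95 at 1415783_at, without lying higher at 1415784_at, whereas the Pink1 probe sets run together, with 3 of 4 arrays of 18 months at the lower left.

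The control probe sets differed between the same ages as both called genes, and their 3′ minus 5′ difference averaged 1.98 ± 0.24 at 18 months (SD, n = 4) and 3.47 ± 0.17 at 2 months (SD, n = 3). The added poly-A control RNAs also differed, with mean log2 levels of 6.15 ± 0.13 at 2 months (SD, n = 3), 6.48 ± 0.08 at 10 months and 7.04 ± 0.34 at 18 months (SD, n = 4 each) and no overlap between the ages, and their part in the changes was not tested. With the 3′ to 5′ value in the fit as a covariate, no probe set of the array was called. Fbxo7 then changed by 0.35 ± 0.31 SE and Vps35 1415783_at by −0.02 ± 0.37 SE at 18 against 2 months. Their SEs without the covariate were 0.11 and 0.16. The covariate separated the young samples from all later ones, so this fit cannot tell age and 3′ bias apart. Markers of microglia had a mean log2 level of 7.77 to 8.03 at 2 months, 8.32 to 8.45 at 10 months and 8.21 to 8.57 at 18 months (6 of 6 measured, none below the lower quartile), so that the later samples did not overlap with the young ones. The levels of 8 general neuronal markers (12.15 to 12.48 at 18 months and 11.62 to 11.99 at 2 months) and of 6 astrocyte markers (11.15 to 11.50 at 18 months and 11.04 to 11.09 at 2 months) did not overlap either. Those of dopaminergic neurons (11.74 to 11.95 at 18 months and 11.63 to 11.77 at 2 months) overlapped. The part of these cell types in the changes was not tested.

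Lrrk2, a kinase that phosphorylates Rab GTPases, had log2 values of 6.82, 7.06, 6.87 and 6.82 at 2 months, 7.51, 6.86, 8.01 and 7.21 at 10 months and 7.32, 7.83, 7.52 and 7.89 at 18 months. All samples of 18 months lay above all young ones, while the samples of 10 months spread over the range of both. The mean was 7.64 ± 0.27 at 18 months and 6.91 ± 0.13 at 2 months (SD, n = 4 and 3), a log2 difference of 0.73 ± 0.23 SE (95% interval 0.22 to 1.24), which did not pass the test (unadjusted p = 0.00897, adjusted p = 0.0802, limma). At 10 months it averaged 7.40 ± 0.49, a difference of 0.49 from 2 months (adjusted p = 0.343). The spread at 10 months entered the estimate of error, and with only the 2 ages in the fit the same difference had an adjusted p of 0.0255. Without array 3 of 10 months, the highest, it was 0.0212, and without array 2, the lowest, 0.0441. Over all 11 fits that left out 1 sample it ran from 0.0212 to 0.267, and only these 2 were called. In the fit that held the 3′ to 5′ covariate the sign turned, to −0.05 ± 0.62 SE. In all, 3 of 12 member probe sets (25%) did not overlap between 18 and 2 months, all higher, against 23.6% of all probe sets in either direction and 10.4% with all samples of 18 months higher.

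Pink1, the kinase that starts the removal of damaged mitochondria, was lower at 18 months at both of its probe sets without a call. At 1441937_s_at the log2 values were 12.91, 13.11, 12.92 and 12.83 at 2 months, 12.80, 12.87, 12.88 and 12.67 at 10 months and 12.56, 12.45, 12.38 and 12.88 at 18 months. Array 4 of 18 months lay among the young ones and the other 3 below them. The mean was 12.57 ± 0.22 at 18 months and 12.96 ± 0.13 at 2 months (SD, n = 4 and 3), a log2 difference of −0.40 ± 0.13 SE (95% interval −0.68 to −0.11, unadjusted p = 0.0105, adjusted p = 0.0878, limma). At 1451148_at the values of 18 months were 12.30, 12.35, 12.20 and 12.72, against 12.56, 12.92, 12.58 and 12.55 at 2 months, with a difference of −0.29 ± 0.14 SE (adjusted p = 0.248). At 10 months the differences from 2 months were −0.16 and −0.12 and the samples overlapped. Without array 4 of 18 months the difference at the brighter probe set was −0.50 with an adjusted p of 0.0375, and after quantile normalization it was called as lower (−0.46, adjusted p = 0.0486). Over the 11 fits that left out 1 sample it ran from −0.50 to −0.32. Their adjusted p-values ran from 0.0375 to 0.242 (limma), and 1 of the 11 was called. The sign was negative at both probe sets under all 23 alternatives. Some of them, such as leaving out an array of 10 months, cannot change the estimate.

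Uchl1, which encodes a ubiquitin hydrolase of neurons, had log2 values of 11.56, 11.85, 12.14 and 12.17 at 2 months, 12.57, 12.22, 11.79 and 12.60 at 10 months and 12.45, 11.80, 12.46 and 12.11 at 18 months. The ages overlapped, and 1 array of 10 months and 2 of 18 months lay within the young range. The change was 0.35 ± 0.23 SE at 18 against 2 months (95% interval −0.15 to 0.85, adjusted p = 0.395, limma) and 0.44 ± 0.23 SE at 10 against 2 months (adjusted p = 0.389). A rise of up to the upper bound lies within this interval.

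Park7, a sensor of oxidative stress, had at 1456194_a_at the narrowest interval of the 12 probe sets at 18 against 2 months. The log2 values there were 12.34, 12.52, 12.43 and 12.45 at 2 months, 12.40, 12.55, 12.38 and 12.46 at 10 months and 12.28, 12.36, 12.30 and 12.39 at 18 months. The change at 18 against 2 months was −0.10 (95% interval −0.30 to 0.10, adjusted p = 0.562, limma), so a change of over 1.3-fold in either direction lay outside the interval. At 1416526_a_at young array 1 had the lowest value and the other arrays of all ages lay between 12.11 and 12.49. Its change was 0.07 at 18 against 2 months (adjusted p = 0.775) and 0.21 at 10 against 2 months (adjusted p = 0.482), so that the probe sets did not have the same sign at 18 months.

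Atp13a2, the transporter of lysosomal polyamines, was measured by 3 probe sets, none of which was called in any comparison. At the brightest, 1428340_s_at, the log2 values were 11.29, 11.07, 11.48 and 11.62 at 2 months, 11.84, 11.69, 11.04 and 11.43 at 10 months and 11.32, 11.20, 11.55 and 11.21 at 18 months. The change at 18 against 2 months was 0.02 (95% interval −0.39 to 0.42, adjusted p = 0.972, limma). At 1452746_at and 1452747_at it was 0.16 (adjusted p = 0.607) and 0.19 (adjusted p = 0.379). At 10 against 2 months the probe sets differed by 0.19, 0.23 and 0.23 with adjusted p-values of 0.703, 0.583 and 0.4. The samples of the ages overlapped at each of them.

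**Figure D3:**
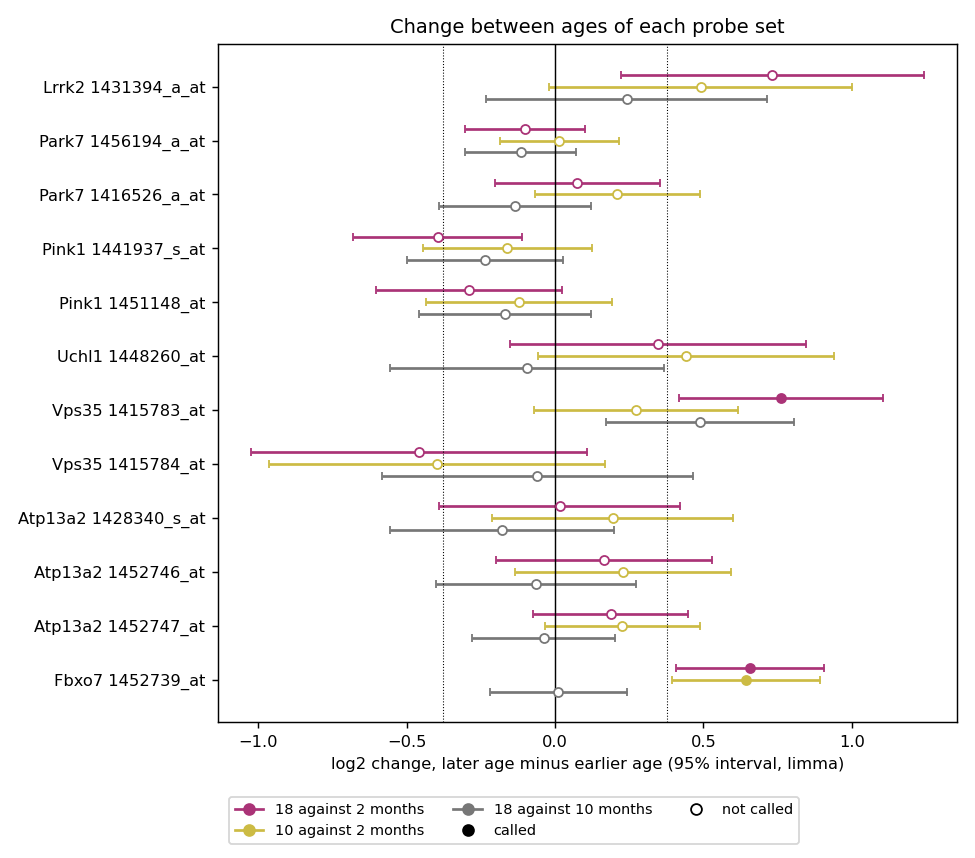
Log2 change between ages for each of the 12 probe sets, with the later age minus the earlier on the horizontal axis and 95% intervals of the limma fit (3 young samples and 4 of each later age). Filled points were called, dotted lines mark 1.3-fold, and the filled ones are Fbxo7 at 18 against 2 months (0.66) and at 10 against 2 months (0.64) and Vps35 1415783_at at 18 against 2 months (0.76).

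At 10 against 2 months, 1 of the 12 member probe sets was called (8.33%), that of Fbxo7, against 1.36% of all probe sets, and it was the only one with an unadjusted p under 0.05. The samples of 10 and 2 months did not overlap at 1 member probe set (8.33%), against 12.6% of all. At 18 against 10 months none was called by limma, against 0.00222% of all probe sets, and 1 had an unadjusted p under 0.05, Vps35 1415783_at, whose ages did not overlap (2.73% of all probe sets). The later age was higher at 8 of the 12 probe sets at 18 against 2 months, at 9 at 10 against 2 months and at 3 at 18 against 10 months. The changes at 18 against 2 months ran from −0.46 to 0.76.

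Under 23 alternative settings, the change at 18 against 2 months remained positive for Fbxo7 in all 23 and was called in 21, and for Vps35 1415783_at it was positive in 22 and called in 21. Both lost the call in the fit with the 3′ to 5′ covariate and in that without young array 1. Lrrk2 was positive in 22 of 23 and called in 6, and Pink1 1441937_s_at was called in 3. At 10 against 2 months, Fbxo7 was positive in all 23 and called in 10. Some of the 23 settings cannot change these estimates, so the sign there was fixed in advance. These were a filter on low values, an intensity trend, no fold threshold and only the 2 ages compared. Leaving out an array of the age not compared was another.

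**Figure D4:**
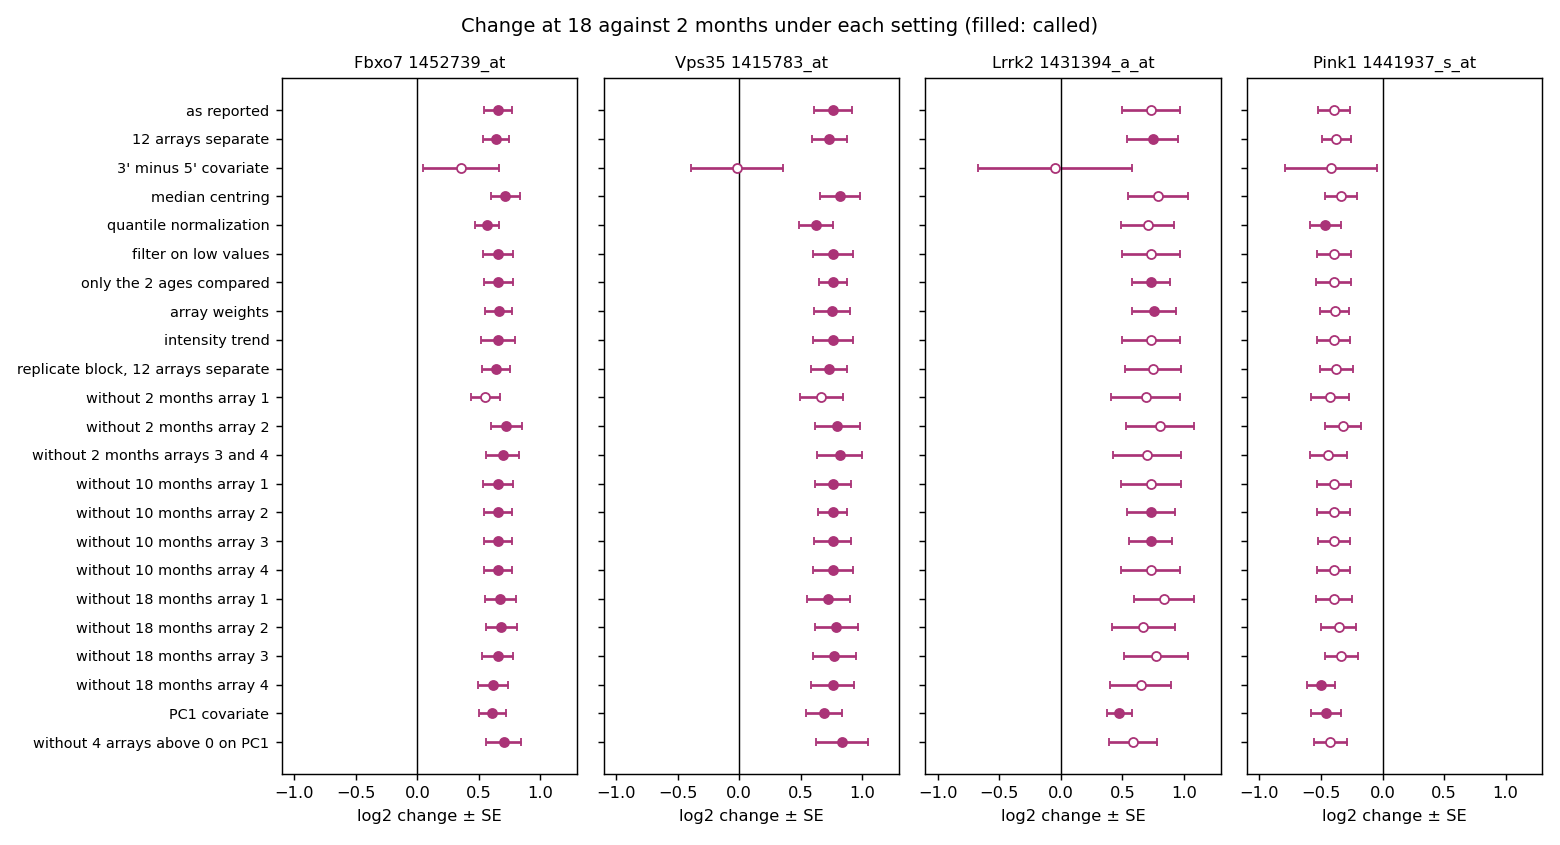
Log2 change at 18 against 2 months ± SE of 4 member probe sets, as reported (top) and under the alternative settings, 1 per line. Filled points were called with an adjusted p under 0.05 and a change over 1.3-fold. Fbxo7 and Vps35 are open in the fit with the control covariate and in that without array 1 of 2 months and filled in all others, and the Pink1 points all lie left of 0.

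Genes that act with the members were described from 7 lists, with each gene at its brightest probe set. In the list of mitophagy partners of Pink1, 23 of 26 genes were measured, of which 7 rose and 1 fell at 18 against 2 months (34.8% called, against 8.82% of all genes), with a median change of 0.18 against −0.02 over all genes. Usp8, a deubiquitinase that acts on parkin, rose by 1.38 ± 0.21 SE on the log2 scale (adjusted p = 0.0059, limma), and the autophagy receptors Sqstm1 and Tax1bp1 by 0.99 ± 0.19 SE (adjusted p = 0.013) and 0.95 ± 0.14 SE (adjusted p = 0.00554). Rhot1, a mitochondrial adaptor for transport along microtubules, rose by 1.03 ± 0.23 SE (adjusted p = 0.0236), and the mitophagy receptors Fundc1 and Bnip3 by 0.58 (adjusted p = 0.0416) and 0.43 (adjusted p = 0.0467). The outer membrane channel Vdac2 rose by 0.54 (adjusted p = 0.026), and Usp30, a mitochondrial deubiquitinase that opposes parkin, fell by 0.55 (adjusted p = 0.0491).

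At other probe sets of the same genes the sign was opposite in 1 of 1 for Usp8, 2 of 2 for Rhot1, 1 of 1 for Sqstm1 and 2 of 3 for Tax1bp1. With the mean of all probe sets of a gene, 3 genes of the list were called, without young array 1 there were 2, without any other single sample 3 to 8, and in the fit with the 3′ to 5′ covariate 0. Usp30 lost its call with median centring, quantile normalization, an intensity trend, the replicate block or only the arrays below 0 on the leading component. It also did when a sample other than array 2 or 3 of 10 months was left out. With 12 separate arrays, array weights or only the 2 ages, 1 gene was called lower, and with the probe set of lowest p 3 were. At 10 against 2 months Usp8 (0.97, adjusted p = 0.0492) and Tax1bp1 (0.71, adjusted p = 0.0418) were called (8.7% of the list, against 1.48% of all genes), and at 18 against 10 months no gene of the 7 lists.

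Around Vps35, 19 of 19 genes of the retromer, its sorting nexins, the WASH complex and its cargo were measured. The sorting nexin Snx2 rose at 18 against 2 months (0.73 ± 0.19 SE, adjusted p = 0.0367, limma) and no other gene was called. This made 5.26% of the list called, against 8.82% of all genes. The cargo-binding partner Vps26a changed by 0.30 (adjusted p = 0.319), Vps26b by 0.35 (adjusted p = 0.118) and Vps29 by 0.10 (adjusted p = 0.797), and the median of the list was 0.24. The count was 0 in 8 of 11 fits that left out 1 sample (young array 1, young arrays 3 and 4, array 1 or 4 of 10 months, or any array of 18 months) and 0 with the 3′ to 5′ covariate, but 4 with 12 separate arrays and 6 with the probe set of lowest p for each gene.

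Of 14 Rab substrates and effectors of Lrrk2, Rab8a, a GTPase of exocytic and ciliary membrane traffic, rose by 0.61 ± 0.14 SE (adjusted p = 0.0265, limma). The lysosome and cilium effector Rilpl1 fell by 0.58 ± 0.14 SE (adjusted p = 0.0319). With both, 14.3% of the list was called, against 8.82% of all genes. The sign was opposite at 1 of 2 other probe sets of Rab8a and at 1 of 3 of Rilpl1. No gene of this list was called by limma without young array 1, without young array 2, without array 4 of 18 months, with only the arrays below 0 on the leading component, with the 3′ to 5′ covariate or with the mean of all probe sets of a gene, and with the probe set of lowest p 3 were higher and 0 lower.

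All 6 partners of Fbxo7 were measured and none was called, nor was any in the 11 fits that left out 1 sample. With 12 separate arrays, array weights, the first principal component as a covariate or the probe set of lowest p, 1 was called higher. The SCF subunits Skp1, Cul1 and Rbx1 changed by 0.29 (adjusted p = 0.135), 0.46 (adjusted p = 0.0715) and −0.17 (adjusted p = 0.466), and the proteasome regulator Psmf1 by 0.18 (adjusted p = 0.601). Near Park7, 10 of 10 genes of the oxidative stress response were measured. Of them Nfe2l2, the transcription factor of the antioxidant response, rose by 0.87 ± 0.18 SE (adjusted p = 0.0156, limma). Glo1, which detoxifies methylglyoxal, fell by 0.65 ± 0.13 SE (adjusted p = 0.017). With both, 20% of the list was called, against 8.82% of all genes. At 2 of 3 other probe sets of Glo1 the sign was opposite, and with the mean of all probe sets of a gene 1 gene of the list was called higher and 0 lower. Without young array 1, and with the 3′ to 5′ covariate, 0 were called. None of 6 measured genes of 11 P5-type ATPases, ubiquitin C-terminal hydrolases and ubiquitin genes, and none of 11 measured genes of 16 other parkinsonism genes, was called by limma at 18 against 2 months, although 1 and 5 of them had an unadjusted p under 0.05. At the brightest probe sets the median of the other parkinsonism genes was 0.34 and that of the 7 members 0.35, against −0.02 over all genes. The sign was opposite at 1 of 1 other probe set of Vps13c, Dnajc13, Htra2 and Rab39b and at 2 of 2 of Pla2g6. It was opposite at 2 of 3 of Dnajc6 and of Synj1 and at 1 of 3 of Gigyf2. With the probe set of lowest p, 0 of these genes were called higher and 1 lower, and leaving out 1 sample gave 0 to 2 calls. At 10 against 2 months no gene of these other 6 lists was called by limma.

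**Figure D5:**
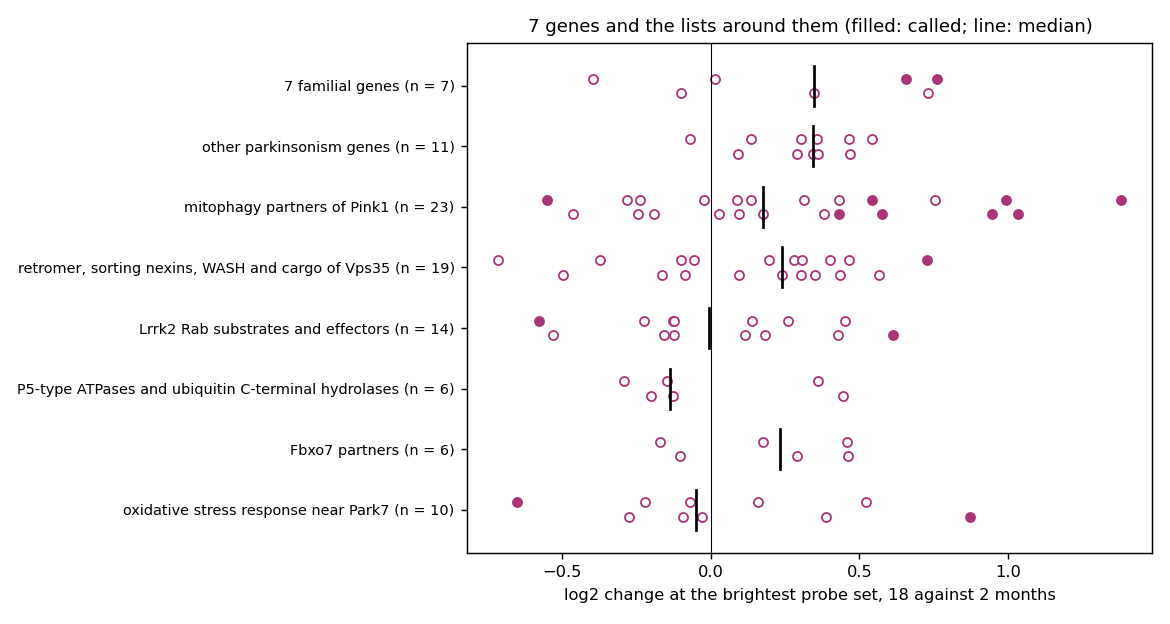
Log2 change at 18 against 2 months of the 7 member genes (top) and of the genes of 7 lists, each at its brightest probe set. Points are genes, filled ones were called, and vertical bars are medians; 8 of 23 mitophagy partners of Pink1 are filled, 7 to the right of 0.

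The genes whose pattern over the 11 samples was most like that of each member, out of 18192 others, were taken by Pearson's r as a description without a test, and the samples of a pair share their arrays. For Fbxo7 they were Dhrs1 (r = 0.982) and Clpp (r = 0.973), and for Vps35 they were Bclaf1 (r = 0.982) and Plekha5 (r = 0.972). For Lrrk2 they were Zmat4 (r = 0.989) and Leprotl1 (r = 0.985), and for Pink1 Bmf (r = 0.914) and Cftr (r = 0.908). Uchl1 ran most like Babam1 (r = 0.977) and Smyd2 (r = 0.973), Atp13a2 most like Mrpl4 (r = 0.964) and Ppp2r5b (r = 0.962), and Park7 most like Usp26 (r = 0.9) and Hoxb1 (r = 0.88).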

How the data were processed

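Total RNA (50 ng) of each pool was amplified in a two-cycle assay and hybridised to Affymetrix arrays of the mouse genome. The authors background-corrected, normalised and summarised the scans by RMA, which gave the deposited log2 value of each probe set; limma 3.4.5 is named in the submitters' processing notes. Scanner files and genome positions of probe sets were not used here. The file held 45101 probe sets, 64 of them controls. The array annotation gave 34945 of the others 1 gene, 932 several and 9160 none.

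A model with a mean for each age and no covariate was fitted to all samples in limma 3.58.1 (R 4.3.3), and p-values were adjusted by Benjamini-Hochberg over 45037 probe sets, with the study's thresholds of 0.05 and 1.3-fold. All probe sets of the members are reported. A gene is represented by its brightest probe set, the one with the highest mean over the samples. From the lists, each gene called at 18 against 2 months is named, other genes being chosen for their role, and for each member the 2 genes with the highest r. The members and lists were chosen with earlier results of these data known. The fit was tested on simulated data. Alternatives were the 12 arrays as separate samples, control or first-component covariates, other centring and normalization, a filter on low values, array weights, an intensity trend, a replicate block, other choices of probe set and leaving out arrays. The settings with the first principal component, and the mean over probe sets for the members, were added after the data had been seen. Arrays have no read depth, and their number limits the precision.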

Additional observations from a re-analysis of the deposited data

How the results depend on the processing

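The 2 member calls at 18 against 2 months became 0 with the 3′ minus 5′ covariate, 6 (3 higher, 3 lower) with the first principal component as a covariate, and 0 to 3 when 1 sample was left out, 0 being without young array 1. The 1 member call at 10 against 2 months became 0 with the 3′ minus 5′ covariate, with only the 2 ages (adjusted p = 0.133), with an intensity trend (0.0604), with the replicate block (0.0743) and with only the arrays below 0 on the first principal component (0.0523), 2 with that component as a covariate, and 0 to 1 when 1 sample was left out, 3 of 11 such fits keeping the call. With the 3′ minus 5′ covariate, Vps35 1415783_at reversed to −0.016 ± 0.37 SE at 18 against 2 months. That covariate separated young from later samples, so the fit with it cannot tell age and 3′ bias apart. Over all member probe sets and contrasts, 1051 values kept their direction and side of the threshold or were not called in either fit, 12 were called only under the alternative, 16 lost the call and 1 reversed.

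Over the whole array, 3359 probe sets were called at 18 against 2 months (2047 higher, 1312 lower), against 2540 higher and 926 lower after median centring, 5339 with array weights, 8749 with the first component as a covariate, 0 with the 3′ minus 5′ covariate and 423 to 5326 when 1 sample was left out (423 without young array 1). The 613 calls at 10 against 2 months became 977 with 12 separate arrays, 2944 with array weights, 181 with an intensity trend, 5655 with the first component as a covariate, 2 with only the arrays below 0 on it, 0 with only the 2 ages or the 3′ minus 5′ covariate, and 1 to 1276 when 1 sample was left out. At 18 against 10 months there were 0 to 2.

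The replicate numbers did not pair the arrays: deviations of same-numbered arrays correlated at −0.611 to 0.431, those of others at −0.692 to 0.768, and 0 arrays correlated best with their own number. With the replicate block and 12 separate arrays, 2 member probe sets were called at 18 against 2 months and 3 probe sets of the whole array at 10 against 2 months. The cause of these changes was not tested.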
